A study of Mus musculus with 12 samples.

Results

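The 37 genes described here encode proteins that copy DNA or carry the cell through mitosis: 18 replication genes and 19 mitosis genes, chosen by name from what the proteins do. Of these, 36 were measured by a probe set that the platform annotation assigns to exactly 1 gene, out of 19938 genes measured in that way, and Ccnb1 was not analysed here. Where a gene has several such probe sets, the brightest was used. All 36 measured genes lay above the median of the genes' mean values, so none was near the bottom of the measured range.

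The samples come from a clone of D3, a mouse embryonic stem (ES) cell line, so all of them share 1 genotype, and differences between lines or clones cannot be seen. Each of 4 groups held 3 samples, named in the titles as biological replicates. The first was ES cells at day 0, before differentiation. The second was embryoid bodies (EBs) at day 4, made by letting the cells clump in bacteriological dishes with no LIF, the cytokine that keeps mouse ES cells undifferentiated. The remaining groups were such EBs treated for 12 h, either with DMSO, the solvent, or with all-trans retinoic acid (ATRA), a vitamin A derivative that activates retinoic acid receptors, at a final concentration written as 5 micromol. Whether these 12 h came after day 4 or were its last hours is not clear from the titles and protocols. Total RNA was read on Affymetrix arrays, 1 per sample, and values are log2 intensities. Below, a level is a log2 intensity (mean ± SD, n = 3), and a change is a difference of log2 levels (± SE from limma, n = 3 per group). A gene is called where its p, adjusted over all genes by the Benjamini-Hochberg method, is under 0.05, and the words rose and fell are kept for called genes.

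Replication starts when the origin recognition complex, Cdc6 and Cdt1 load the ring-shaped Mcm2-7 helicase onto DNA in G1. In S phase Cdc45 and the GINS complex join the ring and switch the helicase on, and DNA polymerases, held by the sliding clamp Pcna, copy the strands from nucleotides that ribonucleotide reductase and thymidylate synthase supply. Many of these genes are transcribed in late G1 by E2F factors. The mitosis genes are mostly transcribed later, in G2 and M, through the MuvB complex, which binds a promoter element called CHR (cell cycle genes homology region) and works with B-Myb and Foxm1. Their products drive mitotic entry (cyclins and Cdk1), build the spindle, hold the checkpoint and part the chromosomes. Mouse ES cells divide fast and have a short G1.

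As a check of the labels, known ATRA targets were higher with ATRA than with DMSO in 3 of 3 arrays each: Stra8 by 3.68 ± 0.14, Dhrs3 by 2.58 ± 0.048, Cyp26a1 by 1.76 ± 0.090 and Rarb by 1.68 ± 0.088 (adjusted p at most 1.21e-07 in limma). Pou5f1, a defining gene of pluripotent cells, stood between 13.32 and 13.42 in all 12 arrays. Of all 8 markers of pluripotent cells measured, 2 higher and 1 lower were called in day 4 EBs against ES cells, 0 higher and 3 lower with ATRA against DMSO and 1 higher and 3 lower with ATRA against ES cells. In the same order 37.5%, 37.5% and 50% of them were called, beside 34.7%, 13.3% and 36.6% of all genes. Their mean log2 level per array was 12.76 to 12.79 in ES cells, 12.74 to 12.80 in day 4 EBs, 12.75 to 12.78 with DMSO and 12.63 to 12.65 with ATRA. Array medians ran from 7.76 to 7.86, and the interquartile range was narrowest, at 3.5, in ES replicate 2 and EB replicate 2, against 3.55 to 3.65 in the other 10 arrays. Markers of other cell types moved between ES cells and EBs. Of 12 fibroblast markers measured, 10 were called lower in day 4 EBs than in ES cells, where 16.9% of all genes were. The mean log2 level of the 12 per array was 9.28 to 9.29 in ES cells, 8.02 to 8.14 in day 4 EBs, 7.99 to 8.04 with DMSO and 7.91 to 7.95 with ATRA. All 12 visceral endoderm markers were called higher in day 4 EBs than in ES cells, where 17.8% of all genes were. Their mean levels were 8.80 to 8.84 in ES cells, 10.18 to 10.38 in day 4 EBs, 10.58 to 10.78 with DMSO and 10.39 to 10.57 with ATRA. No marker can be said to be at 0, since an array gives a background value to every probe set. The part of these cell types in the results below was not tested. In such bulk samples, fewer cells of a type and less RNA per cell cannot be told apart.

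The promoters of the members hold the short sequences named above, and the replication and mitosis genes differ in which of them they carry. RefSeq promoter windows (GRCm38.p6, 250 bases before to 50 bases after the annotated start) were matched for 29 of the 37 genes, Ccnb1 among them. They gave 30 windows, since Mcm7 has 2. Both strands were searched for an E2F word (TTTGGCGC, TTTCGCGC, TTTCCCGC or TTTGCCGC), a CHR word (TTTGAA or TTCGAA) and the CCAAT box (CCAAT), which NF-Y binds. An E2F word stood in 8 of 15 replication windows (53.3%), in 1 of 15 mitosis windows (6.67%, Cdk1) and in 2.26% of all 32851 windows. A CHR word stood in 12 of the mitosis windows (80.0%), in 3 of the replication windows (20.0%) and in 19.2% of all windows. CCAAT stood in 14 mitosis and 12 replication windows (93.3% and 80.0%), against 37.4% of all windows. A match of this kind is a stretch of letters and not a shown binding site.

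These 6 windows are printed because their genes carry results below and show both kinds of promoter: Orc1 at chr4:108579204-108579503 (plus strand), Pola1 at chrX:93632106-93632405 (minus strand), Mcm6 at chr1:128359656-128359955 (minus strand), Cdk1 at chr10:69352863-69353162 (minus strand), Bub1 at chr2:127831810-127832109 (minus strand) and Top2a at chr11:99024140-99024439 (minus strand). Each is written 5′ to 3′ on the strand of the gene, and capitals mark the E2F, CHR and CCAAT words on either strand.
Orc1: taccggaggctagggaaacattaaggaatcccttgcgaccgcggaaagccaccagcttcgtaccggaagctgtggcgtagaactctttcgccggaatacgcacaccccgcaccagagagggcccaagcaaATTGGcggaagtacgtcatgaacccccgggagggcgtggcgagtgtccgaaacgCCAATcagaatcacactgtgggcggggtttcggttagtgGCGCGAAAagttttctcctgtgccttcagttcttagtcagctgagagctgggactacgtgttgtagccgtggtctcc
Pola1: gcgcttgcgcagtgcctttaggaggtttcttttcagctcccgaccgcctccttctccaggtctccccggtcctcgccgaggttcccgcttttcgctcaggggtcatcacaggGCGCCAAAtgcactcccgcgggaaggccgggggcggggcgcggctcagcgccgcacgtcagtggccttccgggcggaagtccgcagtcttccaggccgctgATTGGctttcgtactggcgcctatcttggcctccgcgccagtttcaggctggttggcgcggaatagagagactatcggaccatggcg
Mcm6: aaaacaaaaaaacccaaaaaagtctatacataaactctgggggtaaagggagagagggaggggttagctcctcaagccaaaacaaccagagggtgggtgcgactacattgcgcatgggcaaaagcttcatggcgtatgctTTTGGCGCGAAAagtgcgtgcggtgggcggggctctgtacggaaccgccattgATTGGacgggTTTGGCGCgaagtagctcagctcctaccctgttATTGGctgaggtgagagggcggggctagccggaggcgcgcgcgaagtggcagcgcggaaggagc
Cdk1: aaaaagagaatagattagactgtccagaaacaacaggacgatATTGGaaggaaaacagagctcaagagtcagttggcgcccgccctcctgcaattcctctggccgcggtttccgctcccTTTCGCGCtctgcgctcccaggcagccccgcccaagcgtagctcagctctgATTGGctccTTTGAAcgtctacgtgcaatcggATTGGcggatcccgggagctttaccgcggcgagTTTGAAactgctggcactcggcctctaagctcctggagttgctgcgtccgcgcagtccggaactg
Bub1: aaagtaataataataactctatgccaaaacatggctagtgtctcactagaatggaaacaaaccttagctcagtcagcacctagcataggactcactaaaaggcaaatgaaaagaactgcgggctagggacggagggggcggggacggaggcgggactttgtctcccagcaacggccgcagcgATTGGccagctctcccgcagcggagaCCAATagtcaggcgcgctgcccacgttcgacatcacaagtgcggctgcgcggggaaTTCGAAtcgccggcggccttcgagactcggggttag
Top2a: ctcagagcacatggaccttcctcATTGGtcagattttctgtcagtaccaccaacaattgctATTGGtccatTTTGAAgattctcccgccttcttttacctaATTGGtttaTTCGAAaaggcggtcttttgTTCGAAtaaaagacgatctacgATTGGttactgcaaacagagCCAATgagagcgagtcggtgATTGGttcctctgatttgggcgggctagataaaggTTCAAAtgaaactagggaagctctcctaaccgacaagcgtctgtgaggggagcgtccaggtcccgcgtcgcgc
Orc1 has 1 E2F word, beginning at position -27 from the start, and 2 CCAAT boxes. Pola1 has 1 E2F word, beginning at position -138, and Mcm6 has 3, of which the first and the second overlap. Cdk1 has 1 E2F word, 2 CHR words and 3 CCAAT boxes, so it carries all 3 kinds. Bub1 has 1 CHR word just after the start with 2 CCAAT boxes upstream of it, and Top2a has 4 CHR words and 6 CCAAT boxes. Among the 12 mitosis genes with a CHR word, 11 had such a word within 50 bases before the start or after it, and 10 of the mitosis genes had at least 2 CCAAT boxes.

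**Figure D1:**
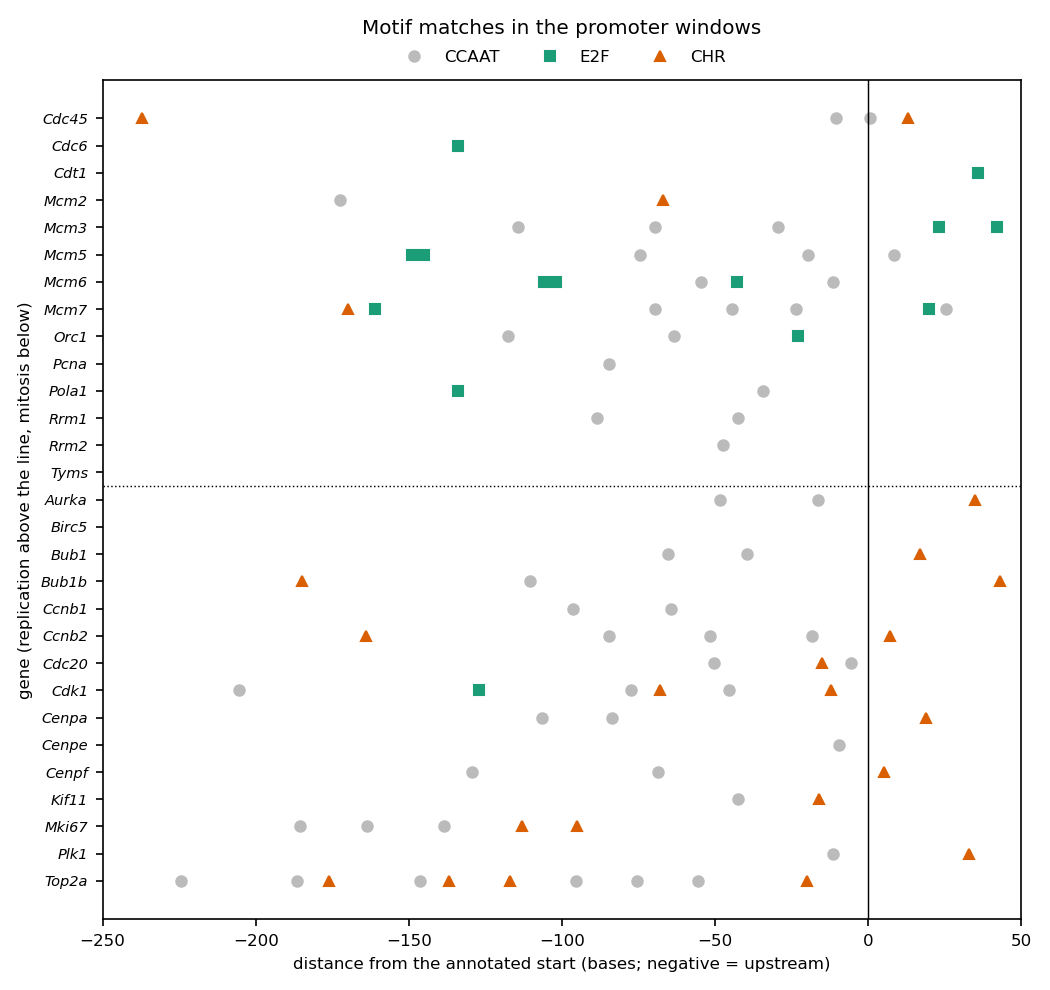
Matches to the E2F (squares), CHR (triangles) and CCAAT (circles) words in the promoter windows of 29 genes, by distance in bases of the middle of the match from the annotated start; both Mcm7 windows share a line, and Tyms and Birc5 have no match. E2F words lie in 8 of the 14 replication genes and in Cdk1 of the 15 mitosis genes, and CHR words in 12 mitosis genes.

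Across the 4 groups these genes differed by small amounts. All genes, set beside them here, include those below the median mean value, where none of the 36 lies. No range was taken over the brighter genes alone. The range between the highest and the lowest group mean had a median of 0.17 over the 36 genes and of 0.21 over all 19938 genes, and it lay under 0.5 for 36 of 36 genes, as it did for 85.7% of all genes. The narrowest range was that of Gins2 (0.044) and the widest that of Pola1 (0.42, between day 4 EBs and ATRA), next to Orc1 (0.42, between ES cells and ATRA). Within a group, the SD between arrays had a median of 0.044 over these genes and of 0.085 over all genes. Differences such as that of Mcm3 (-0.13 for ATRA against ES cells) were called, and none of the 36 genes changed by 1.5-fold in any of the 4 comparisons. The highest group mean was in ES cells for 25 of 36 genes (14 of 18 replication genes and 11 of 18 mitosis genes), and the lowest was with ATRA for 20 (11 replication and 9 mitosis genes). The order of the groups was not counted over all genes.

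**Figure D2:**
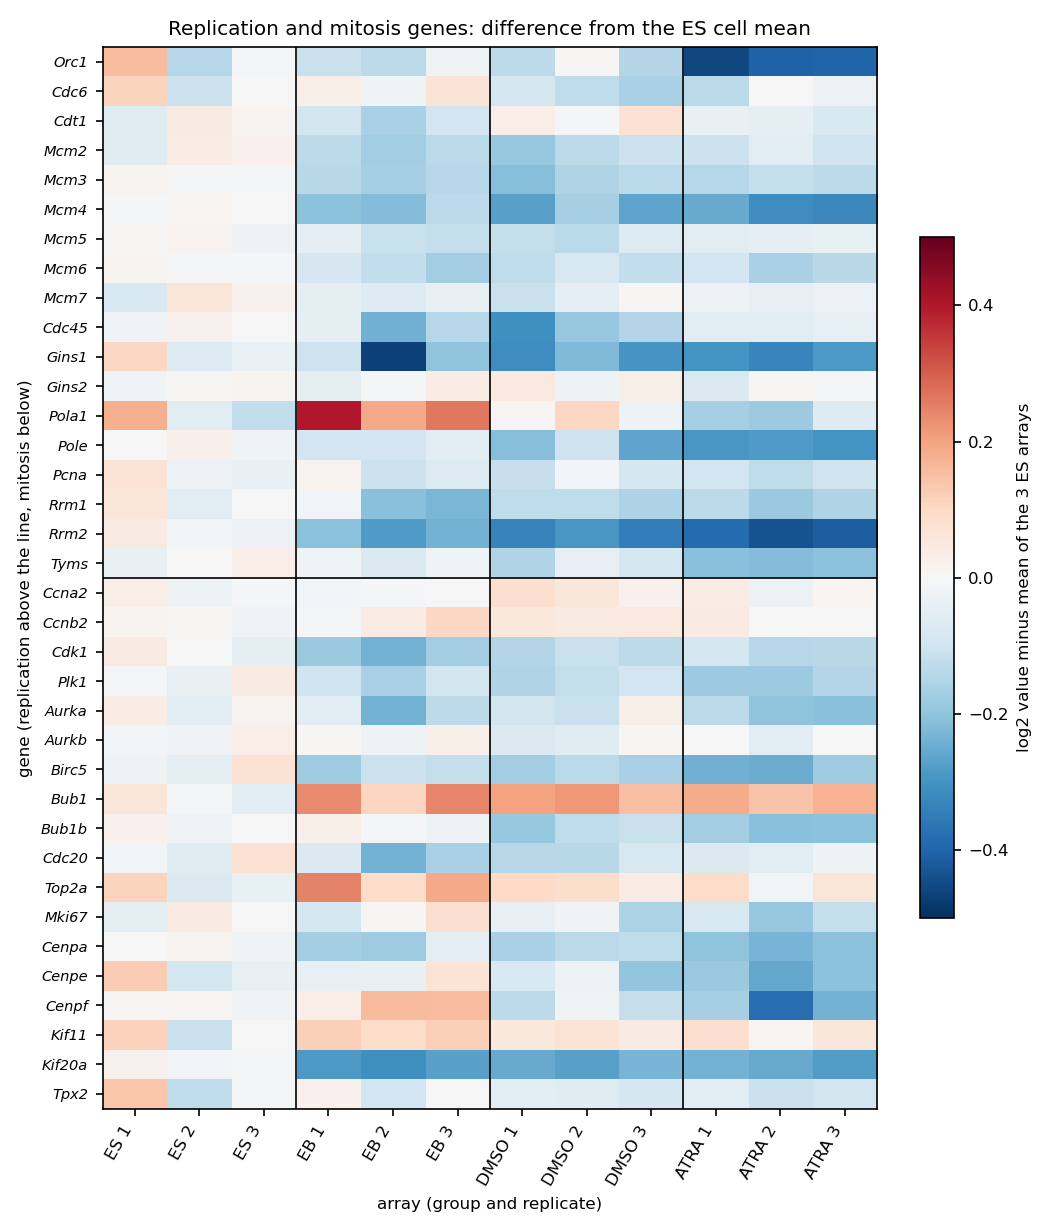
Log2 value of each of the 36 genes (rows) on each of the 12 arrays (columns) minus the mean of the 3 ES cell arrays for that gene; blue is lower and red higher, on a scale from -0.5 to 0.5. Within its own row Orc1 is darkest in the 3 ATRA arrays, Rrm2 and Mcm4 are blue in all 9 EB arrays, and Pola1, Bub1 and Top2a are red in day 4 EBs.

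The first comparison sets day 4 EBs against ES cells, and aggregation, time and loss of LIF come together in it. The mean levels of the pluripotent cell markers overlapped between these groups, as given above. Of the 36 genes, 15 were called (limma), 3 higher and 12 lower, or 41.7%, where 34.7% of all genes were called (17.8% higher and 16.9% lower). By adjusted p, the falls were led by Kif20a, a kinesin of cytokinesis, by 0.29 ± 0.038 (adjusted p = 7.40e-05), Rrm2, the regulated subunit of ribonucleotide reductase, by 0.24 ± 0.042 (6.75e-04), and Cdk1, the kinase of mitotic entry, by 0.20 ± 0.042 (0.00259). Gins1, a helicase activator subunit, had the second largest fall in size, 0.26 ± 0.081 (adjusted p = 0.026), with a wider spread between arrays. Pola1, the catalytic subunit of DNA polymerase alpha, rose by 0.28 ± 0.080, Bub1, a checkpoint kinase, by 0.20 ± 0.050 and Top2a, the topoisomerase that untangles DNA, by 0.18 ± 0.059. None of the 36 changed 1.5-fold, where 7.19% of all genes did, and 20.3% of all genes changed more than Kif20a. The median change was -0.10 over the replication genes and -0.0062 over the mitosis genes, beside -0.00043 over all genes. Values in EBs and ES cells did not overlap for 19 of 36 genes, where 41.3% of all genes had no overlap.

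Only Kif20a, Rrm2 and Cdk1 kept this call under all 10 other settings and all 6 removals of a single array tried. Mcm3, Mcm4 and Bub1 kept it when any single array was left out. With single arrays left out, calls ended for Mcm2 without EB 2, ES 2 or ES 3 (log2 change -0.14 to -0.13, adjusted p 0.0628 to 0.0729), Mcm6 without ES 1, EB 2, ES 2, EB 3 or ES 3 (-0.13 to -0.10, adjusted p 0.0605 to 0.13) and Gins1 without ES 1 or EB 2 (-0.21 to -0.15, adjusted p 0.0795 to 0.0879). They ended likewise for Pola1 without EB 1 or ES 3 (0.22 to 0.23, adjusted p 0.0637 to 0.0668), Plk1 without EB 1, ES 1, EB 2, EB 3 or ES 3 (-0.13 to -0.095, adjusted p 0.0661 to 0.167) and Birc5 without EB 1, EB 3 or ES 3 (-0.14 to -0.098, adjusted p 0.0704 to 0.161). The same held for Cdc20 without ES 1, EB 2, EB 3 or ES 3 (-0.16 to -0.12, adjusted p 0.0538 to 0.149), Top2a without EB 1, ES 2, EB 3 or ES 3 (0.14 to 0.17, adjusted p 0.0935 to 0.129) and Cenpa without EB 1, ES 1, EB 2, ES 2 or ES 3 (-0.14 to -0.11, adjusted p 0.0643 to 0.123). The count of 15 dropped to 9 without EB 2 and to 7 without ES 3, and was 8 (2 higher and 6 lower) without ES 2 and EB 2 together. Median centring of the arrays left 7 calls, 3 higher and 4 lower, and a fit to these 6 arrays alone left 4, all lower. Other settings raised the count, to 19 with quantile normalization or array weights and to 20 with an intensity trend or only genes above the median mean value. Fibroblast markers were lower and visceral endoderm markers higher in EBs, as given above, and their part in these calls was not tested.

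DMSO-treated against untreated day 4 EBs holds the solvent and any added time. None of the 36 genes was called in limma (0.747% of all genes were, 0.537% higher and 0.211% lower). An unadjusted p under 0.05 was found for 6 of them, and for 3256 of all 19938 genes. With an intensity trend in the variance prior, or with only genes above the median mean value, 4 were called: Pola1 (-0.26 ± 0.080 in the original fit), Cenpf (-0.21 ± 0.061) and Bub1b (-0.14 ± 0.041) lower and Cdt1 (0.15 ± 0.045) higher. More genes were then called in general, 626 of 19938 with the trend and 761 of 9969 above the median mean value. The median change was -0.018 over the 36 genes and -0.024 over all genes, and median centring turned the sign of the former (0.0023). The widest 95% interval bounds over the 36 genes were -0.43 (Pola1) and 0.25 (Cdt1), so larger shifts than these lie outside the intervals. The DMSO and EB values were apart for 10 of 36 genes, as for 22.4% of all genes, and 0 of 36 changed 1.5-fold in either direction, where 0.11% of all genes did. Of 12 visceral endoderm markers, 5 were called higher with DMSO (41.7%), beside 0 of 12 fibroblast and 0 of 8 pluripotent cell markers. The part of these markers was not tested.

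The comparison of ATRA with DMSO asks what ATRA adds to its solvent over the same 12 h, and it shares the DMSO arrays with the comparison before it. Of the 36 genes, 1 was called (2.78%), where 13.3% of all genes were (6.26% higher and 7.05% lower): Orc1, which encodes the largest subunit of the origin recognition complex, fell by 0.33 ± 0.072 (1.26-fold, adjusted p = 0.00832). Orc1 kept its call under each of the 10 other settings and each of the 6 single-array removals, at -0.36 to -0.28 over the removals. No mitosis gene was called in limma. An unadjusted p under 0.05 was found for 5088 of all 19938 genes and for 1 of 18 mitosis genes. That gene was Cenpf, at -0.17 ± 0.061 (adjusted p = 0.0897). Next to the threshold stood Cdc45, at 0.17 ± 0.056 (adjusted p = 0.0783), and Tyms, at -0.12 ± 0.043 (0.0985). Cdc45 was called higher after quantile normalization, and all 3 were called with an intensity trend, with array weights, or among genes above the median mean value. The median change was -0.033 over the replication genes, -0.041 over the mitosis genes and 0.010 over all genes. Over the 35 genes that were not called, the 95% intervals reached no lower than -0.34 and no higher than 0.29. Values with ATRA and with DMSO did not overlap for 14 of 36 genes, where 39.6% of all genes had no overlap. None of the 36 changed 1.5-fold, where 1.72% of all genes did. The mean level over the 8 markers of pluripotent cells was lower with ATRA than with DMSO in the same arrays, as given above. Of 12 visceral endoderm markers, 1 was called higher and 6 lower (58.3%), and of 12 fibroblast markers 1 higher and 3 lower (33.3%). The part of all these markers in these values was not tested.

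ATRA-treated EBs against ES cells spans all steps and shares arrays with the comparisons above. Of the 36 genes, 18 were called, 1 higher and 17 lower, or 50%, where 36.6% of all genes were called (17.5% higher and 19.1% lower). The largest falls were those of Orc1, by 0.42 ± 0.072, and Rrm2, by 0.41 ± 0.042 (adjusted p = 7.66e-06), and 12.6% of all genes changed more than Orc1. Mcm4 fell by 0.30 ± 0.046, Gins1 by 0.30 ± 0.081, Pole by 0.29 ± 0.047, Cenpf by 0.26 ± 0.061 and Kif20a by 0.26 ± 0.038. Bub1 rose by 0.17 ± 0.050. All 18 replication genes had an estimate below 0, 8 of them called, and 13 of 18 mitosis genes did, 9 of them called. Over all 19938 genes, 10279 had an estimate below 0. Gins2, at -0.026, was the replication gene nearest to 0, and median centring moved the median over all genes up by 0.043. The medians were -0.13 and -0.13, beside -0.0068 over all genes. The ATRA and ES cell values were apart for 23 of 36 genes, as for 47.4% of all genes, and 0 of 36 changed 1.5-fold, where 7.53% of all genes did.

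The 11 calls that held under every other setting and every removal were those of Orc1, Mcm4, Gins1, Pole, Rrm2, Tyms, Birc5, Bub1b, Cenpa, Cenpf and Kif20a. Plk1 kept its call under every removal and lost it only with median centring. With single arrays left out, calls ended for Mcm3 without ATRA 1 or ATRA 3 (log2 change -0.13 to -0.12, adjusted p 0.0618 to 0.0675), Mcm6 without ES 1, ATRA 2, ES 2, ATRA 3 or ES 3 (-0.14 to -0.12, adjusted p 0.0506 to 0.101) and Cdk1 without ES 1, ATRA 2, ES 2 or ATRA 3 (-0.12 to -0.10, adjusted p 0.0754 to 0.115). They ended likewise for Aurka without ES 1, ATRA 2, ATRA 3 or ES 3 (-0.17 to -0.16, adjusted p 0.0729 to 0.0903), Bub1 without ATRA 1, ATRA 3 or ES 3 (0.14 to 0.16, adjusted p 0.0604 to 0.0815) and Cenpe without ES 1 or ATRA 2 (-0.19 to -0.15, adjusted p 0.0697 to 0.0715). An intensity trend and array weights each gave 22 calls, 1 higher and 21 lower. Median centring left 12 calls, 1 higher and 11 lower. It also moved the share of called genes that were higher, over all genes, from 47.9% to 58.6%. Fibroblast and visceral endoderm markers, and those of pluripotent cells, differed between these groups as given above, and their part was not tested.

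**Figure D3:**
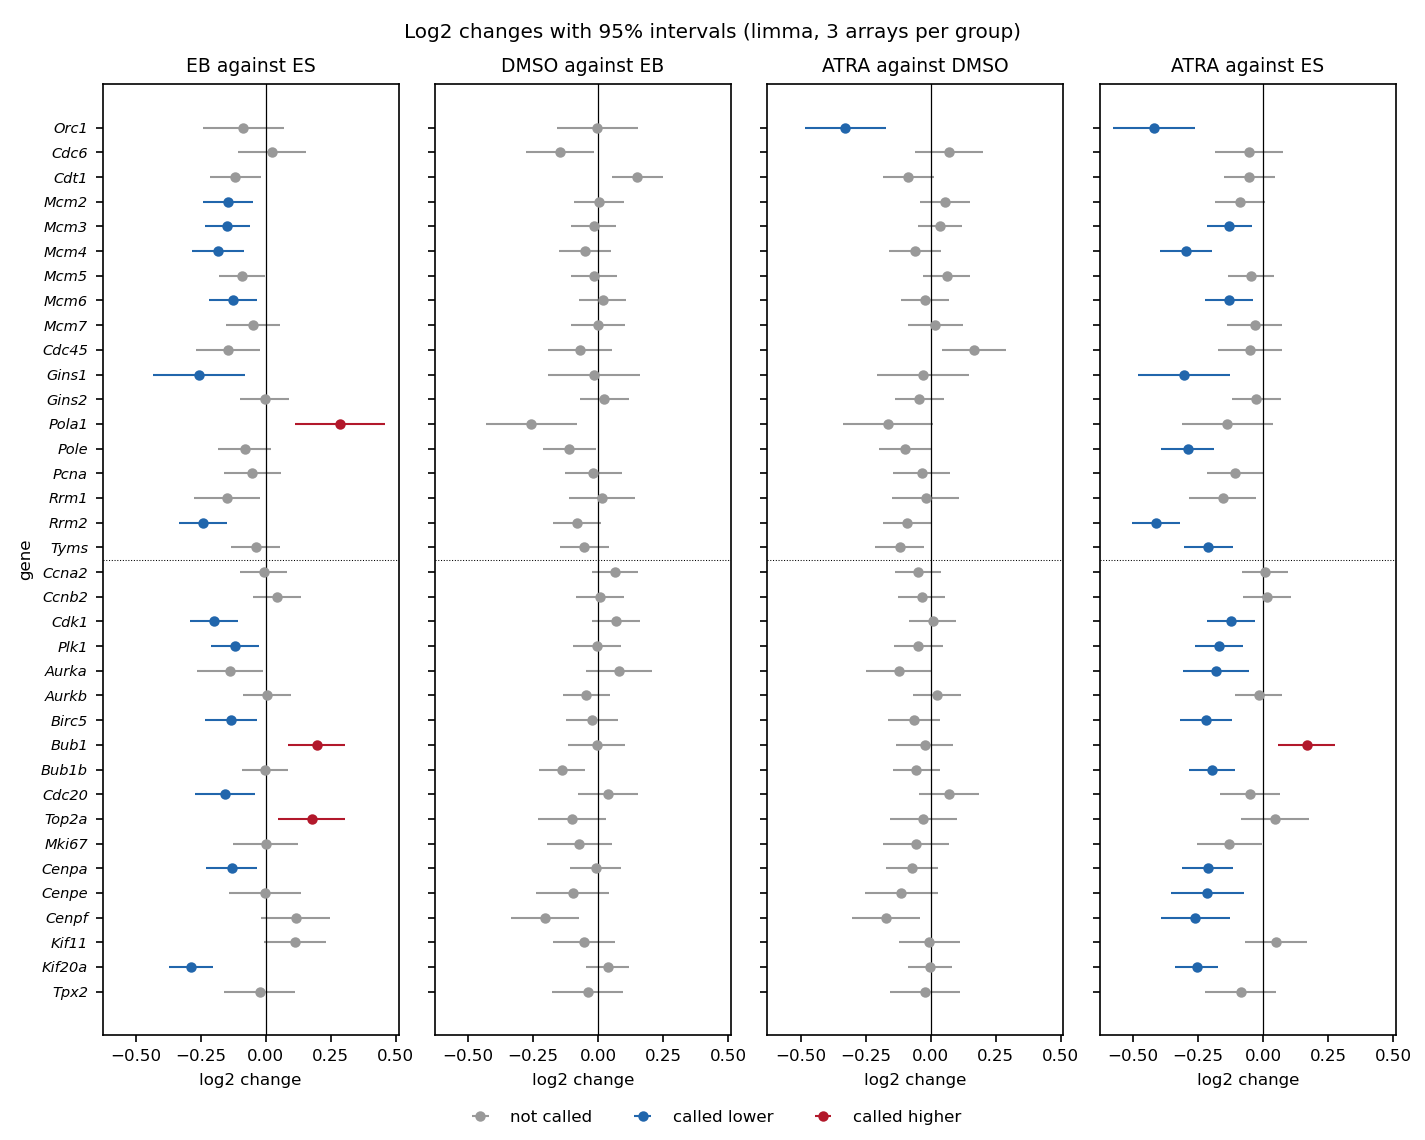
Log2 change (points) with its 95% interval (bars) of each of the 36 genes in the 4 comparisons, from limma; blue and red mark genes called lower and higher, grey those not called, and the dotted line parts replication genes (above) from mitosis genes (below). Coloured points number 15 for EBs against ES cells, 0 for DMSO against EBs, 1 for ATRA against DMSO and 18 for ATRA against ES cells.

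By role, the loading factors differed from each other. Orc1 read 10.89, 10.59 and 10.73 in the 3 ES cell arrays, 10.63, 10.61 and 10.72 in day 4 EBs, 10.61, 10.74 and 10.59 with DMSO and 10.28, 10.34 and 10.34 with ATRA. The 3 ATRA values lay below the other 9, which overlapped among the ES cell, EB and DMSO groups. Cdc6, an ATPase that helps to load the helicase, read 9.96, 9.74 and 9.85 in ES cells, 9.88, 9.83 and 9.92 in day 4 EBs, 9.76, 9.72 and 9.69 with DMSO and 9.71, 9.85 and 9.82 with ATRA and was called in none of the 4 comparisons. Cdt1, which brings the Mcm ring to the origin, stood at 12.45 ± 0.054, 12.33 ± 0.039, 12.48 ± 0.039 and 12.39 ± 0.019 in ES cells, day 4 EBs, DMSO and ATRA, and its values in day 4 EBs lay below those of the other 3 groups (EBs against ES cells -0.12 ± 0.045, adjusted p = 0.0627; DMSO against EBs 0.138). It was not called in any comparison.

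All 6 subunits of the Mcm2-7 helicase had estimates below 0 for day 4 EBs against ES cells, from -0.18 to -0.050, and Mcm2, Mcm3, Mcm4 and Mcm6 fell. Mcm4 read 12.36, 12.38 and 12.37 in ES cells, 12.16, 12.15 and 12.24 in day 4 EBs, 12.10, 12.20 and 12.11 with DMSO and 12.12, 12.06 and 12.05 with ATRA, and the 3 ES cell values lay above all 9 EB values. Mcm3 fell by 0.15 ± 0.039 and stood at 12.30 ± 0.014, 12.15 ± 0.015, 12.13 ± 0.040 and 12.17 ± 0.011 in the order ES cells, day 4 EBs, DMSO and ATRA. In the same order Mcm2 stood at 12.76 ± 0.052, 12.62 ± 0.024, 12.62 ± 0.043 and 12.67 ± 0.027, and Mcm6 at 12.21 ± 0.011, 12.09 ± 0.046, 12.10 ± 0.026 and 12.08 ± 0.034. Mcm2 fell by 0.15 ± 0.044 and Mcm6 by 0.13 ± 0.042. Mcm5 (-0.091 ± 0.041) and Mcm7 (-0.050 ± 0.048) were not called. Their levels over the 4 groups were 12.87 ± 0.024, 12.78 ± 0.038, 12.76 ± 0.035 and 12.82 ± 0.0088 for Mcm5 and 12.79 ± 0.072, 12.74 ± 0.014, 12.74 ± 0.059 and 12.75 ± 0.0072 for Mcm7. With ATRA against DMSO none of the 6 was called in limma or at an unadjusted p under 0.05, and their estimates ran from -0.062 (Mcm4) to 0.061 (Mcm5). Calls of Mcm2 and Mcm6 ended without single arrays, as given above.

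Of the helicase activators, Gins1 read 10.29, 10.12 and 10.15 in ES cells, 10.08, 9.72 and 9.98 in day 4 EBs, 9.88, 9.96 and 9.89 with DMSO and 9.89, 9.86 and 9.90 with ATRA, with EB replicate 2 lowest of the 12 arrays. All ES cell values lay above all EB values, and Gins1 fell by 0.26 ± 0.081 in day 4 EBs. Gins2, another subunit of the same complex, stood at 11.55 ± 0.018, 11.55 ± 0.039, 11.57 ± 0.037 and 11.53 ± 0.042 in the 4 groups and was called in no comparison. Cdc45 read 10.58, 10.61 and 10.59 in ES cells, 10.54, 10.35 and 10.45 in day 4 EBs, 10.29, 10.40 and 10.45 with DMSO and 10.54, 10.54 and 10.55 with ATRA; the 3 ATRA values lay above the 3 DMSO values, and no comparison was called.

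Among the polymerase genes, Pola1 read 10.68, 10.44 and 10.38 in ES cells, 10.90, 10.69 and 10.76 in day 4 EBs, 10.50, 10.60 and 10.47 with DMSO and 10.33, 10.32 and 10.44 with ATRA. The day 4 EB values were the highest, ES replicate 1 came close to them, and the call of EBs against ES cells ended when EB 1 or ES 3 was left out (log2 change 0.22 without EB 1). Pole, the catalytic subunit of the leading-strand polymerase epsilon, read 11.65, 11.67 and 11.63 in ES cells, 11.56, 11.55 and 11.60 in day 4 EBs, 11.44, 11.55 and 11.39 with DMSO and 11.36, 11.37 and 11.35 with ATRA. All ES cell values lay above all EB values, all of the untreated EB values above those with DMSO, and these above those with ATRA, but only the contrast of ATRA with ES cells was called. Pcna stood at 13.34 ± 0.060, 13.28 ± 0.065, 13.26 ± 0.054 and 13.23 ± 0.016 in the order ES cells, day 4 EBs, DMSO and ATRA and was called in no comparison. The other Pcna probe set, outside the test, gave -0.10 for ATRA against ES cells, next to -0.11 here.

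Of the nucleotide supply genes, Rrm2 read 12.84, 12.79 and 12.77 in ES cells, 12.60, 12.52 and 12.56 in day 4 EBs, 12.47, 12.51 and 12.46 with DMSO and 12.41, 12.36 and 12.39 with ATRA. The 4 groups did not overlap and lay in the order ES cells, day 4 EBs, DMSO and ATRA. The first step was called (-0.24 ± 0.042) and the next steps, -0.081 ± 0.042 and -0.090 ± 0.042, were not. Rrm1, the large subunit of the same enzyme, stood at 12.28 ± 0.059, 12.13 ± 0.12, 12.15 ± 0.017 and 12.13 ± 0.026 in the order ES cells, day 4 EBs, DMSO and ATRA and was called in no comparison. Tyms, thymidylate synthase, read 11.69, 11.73 and 11.76 in ES cells, 11.71, 11.66 and 11.71 in day 4 EBs, 11.58, 11.69 and 11.64 with DMSO and 11.52, 11.51 and 11.52 with ATRA, and fell by 0.21 ± 0.043 with ATRA against ES cells.

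**Figure D4:**
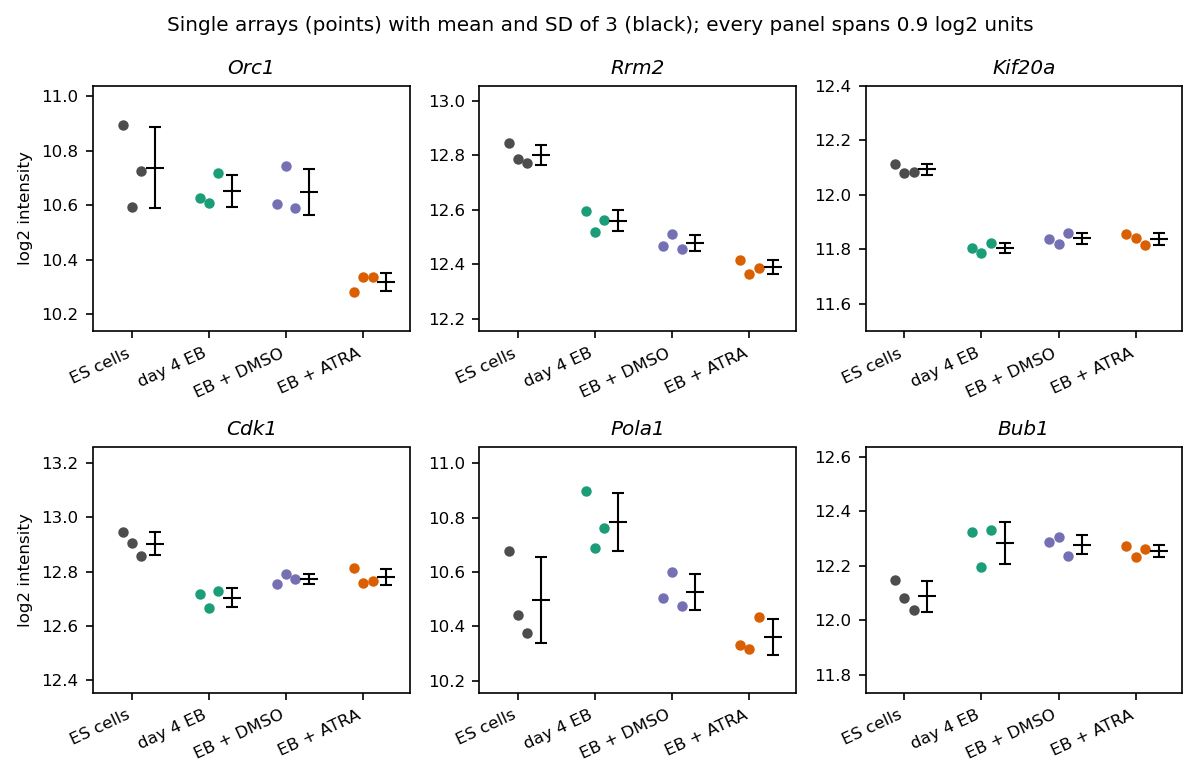
Log2 intensity on each array (points) of Orc1, Rrm2, Kif20a, Cdk1, Pola1 and Bub1 in the 4 groups, with the mean and SD of the 3 arrays in black; every panel spans 0.9 log2 units. Orc1 is lowest with ATRA, Rrm2 steps down over the groups, Kif20a and Cdk1 are highest in ES cells, Pola1 is highest in day 4 EBs, and Bub1 is lowest in ES cells.

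No mitotic cyclin measured was called, while their kinase fell in day 4 EBs. Ccna2, cyclin A2 of S phase and G2, stood at 12.93 ± 0.031, 12.92 ± 0.0055, 12.99 ± 0.032 and 12.94 ± 0.034, and Ccnb2, a B-type cyclin, at 12.85 ± 0.017, 12.89 ± 0.056, 12.90 ± 0.0038 and 12.86 ± 0.022 in ES cells, day 4 EBs, DMSO and ATRA; neither was called in any comparison. Cdk1, which these cyclins activate, read 12.94, 12.91 and 12.86 in ES cells, 12.72, 12.67 and 12.73 in day 4 EBs, 12.76, 12.79 and 12.77 with DMSO and 12.81, 12.76 and 12.77 with ATRA. All ES cell values lay above all EB values.

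Of the mitotic kinases, Plk1 fell by 0.12 ± 0.042 in day 4 EBs and by 0.17 ± 0.042 with ATRA, both against ES cells, and stood at 12.52 ± 0.041, 12.40 ± 0.039, 12.40 ± 0.026 and 12.35 ± 0.020 in ES cells, day 4 EBs, DMSO and ATRA. Aurka, the spindle pole kinase, stood at 11.55 ± 0.048, 11.41 ± 0.092, 11.49 ± 0.076 and 11.37 ± 0.044 in the same order and fell by 0.18 ± 0.058 with ATRA against ES cells. Aurkb, the kinase of the chromosomal passenger complex, was called in no comparison (12.12 ± 0.027, 12.13 ± 0.026, 12.08 ± 0.041 and 12.10 ± 0.033), while Birc5, or survivin, which belongs to the same complex, read 11.16, 11.14 and 11.26 in ES cells, 11.01, 11.08 and 11.06 in day 4 EBs, 11.01, 11.05 and 11.02 with DMSO and 10.94, 10.94 and 11.01 with ATRA and fell in day 4 EBs and with ATRA against ES cells. Calls of Plk1 and Birc5 in day 4 EBs, and of Aurka, ended without single arrays, as given above.

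Checkpoint genes changed in both directions. Bub1 read 12.15, 12.08 and 12.04 in ES cells, 12.32, 12.20 and 12.33 in day 4 EBs, 12.29, 12.31 and 12.24 with DMSO and 12.27, 12.23 and 12.26 with ATRA, and all 9 EB values lay above the 3 ES cell values. Bub1b, which encodes the checkpoint protein BubR1, read 11.75, 11.71 and 11.72 in ES cells, 11.75, 11.71 and 11.70 in day 4 EBs, 11.53, 11.60 and 11.61 with DMSO and 11.55, 11.51 and 11.52 with ATRA and fell by 0.20 ± 0.041 with ATRA against ES cells. Both its treated groups lay below both untreated groups, with no overlap. Cdc20, which the checkpoint holds in check and which activates the anaphase-promoting complex, stood at 11.93 ± 0.069, 11.77 ± 0.082, 11.81 ± 0.034 and 11.88 ± 0.024 and fell by 0.16 ± 0.053 in day 4 EBs; it was not called with ATRA against ES cells (-0.050 ± 0.053).

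Of the chromosome genes, Top2a read 12.36, 12.18 and 12.21 in ES cells, 12.50, 12.34 and 12.44 in day 4 EBs, 12.35, 12.34 and 12.29 with DMSO and 12.34, 12.23 and 12.31 with ATRA; values in day 4 EBs and ES cells overlapped by a single array, ES replicate 1. Another Top2a probe set, with a mean of only 5.71, was called higher with ATRA against ES cells (0.48 ± 0.11, adjusted p over all probe sets = 0.0096), where the probe set used here was not (0.046 ± 0.059). Mki67, the gene of the proliferation antigen Ki-67, stood at 12.10 ± 0.046, 12.10 ± 0.083, 12.03 ± 0.076 and 11.97 ± 0.056 in the order ES cells, day 4 EBs, DMSO and ATRA and was called in no comparison. Cenpa, the centromeric histone H3 variant, read 12.01, 12.03 and 11.99 in ES cells, 11.84, 11.83 and 11.97 in day 4 EBs, 11.85, 11.88 and 11.88 with DMSO and 11.81, 11.78 and 11.80 with ATRA and fell by 0.21 ± 0.045 with ATRA against ES cells. Cenpf, a kinetochore protein, was at 10.70 ± 0.014, 10.82 ± 0.072, 10.61 ± 0.060 and 10.44 ± 0.11 and fell by 0.26 ± 0.061 in the same comparison. Cenpe, the kinetochore motor, was at 10.46 ± 0.11, 10.46 ± 0.062, 10.36 ± 0.087 and 10.24 ± 0.038 over the 4 groups and fell by 0.22 ± 0.064 there.

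Of the spindle genes, Kif20a read 12.12, 12.08 and 12.09 in ES cells, 11.81, 11.79 and 11.82 in day 4 EBs, 11.84, 11.82 and 11.86 with DMSO and 11.86, 11.84 and 11.82 with ATRA. The ES cell values lay above all 9 EB values, and the EB groups overlapped each other. The fall had the smallest adjusted p of the 36 genes in that comparison. Kif11, the motor that pushes the spindle poles apart, stood at 12.27 ± 0.11, 12.38 ± 0.016, 12.32 ± 0.014 and 12.32 ± 0.037, and Tpx2, the activator of the Aurora A kinase, at 11.64 ± 0.13, 11.62 ± 0.062, 11.58 ± 0.015 and 11.56 ± 0.027. Neither was called in any comparison.

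Many of the 36 genes also deviated in the same direction on single arrays of a group, by small amounts. No such deviation was taken over all genes. In EB replicate 2, 17 of 18 replication genes and 14 of 18 mitosis genes lay below the mean of the 3 EB arrays, with mean deviations of -0.047 and -0.033. On that array other lists deviated too, so this was not particular to the 36 genes. The mean deviation was -0.049 over 43 other replication genes, -0.040 over 47 other mitosis genes and -0.032 over the pluripotent cell markers. It was 0.061 over the fibroblast and 0.099 over the visceral endoderm markers. In ATRA replicate 2, 17 of 18 mitosis genes lay below their group mean, with a mean deviation of -0.032, against -0.0029 for the replication genes. ES replicates 2 and 3 each had 13 of 18 mitosis genes below the group mean, and ES replicate 1 the highest value for 11. EB replicate 2 and ES replicate 2 are also the arrays with the narrowest interquartile range. Without both arrays 8 of 36 genes were called for EBs against ES cells, and 6248 of all 19938 genes.

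Further genes of the same processes were read from lists of replication, mitosis and cell cycle control genes. Of 43 other replication genes, 3 rose and 12 fell in day 4 EBs against ES cells (median -0.063), 1 rose and 1 fell with ATRA against DMSO (-0.014), and 1 rose and 14 fell with ATRA against ES cells (-0.12). In the same order 34.9%, 4.65% and 34.9% of them were called, beside 34.7%, 13.3% and 36.6% of all genes. Rfc3, a subunit of the clamp loader, fell by 0.72 ± 0.049 in day 4 EBs, Tk1, thymidine kinase, by 0.40 ± 0.043, and Pole3, a small subunit of polymerase epsilon, by 0.38 ± 0.045. Rpa1, the large subunit of the single-strand binding protein, read 12.15, 12.02 and 12.07 in ES cells, 11.67, 11.40 and 11.52 in day 4 EBs, 11.55, 11.54 and 11.53 with DMSO and 12.18, 12.27 and 12.19 with ATRA. It fell in day 4 EBs (-0.55 ± 0.063) and rose with ATRA against DMSO (0.67 ± 0.063, adjusted p = 1.62e-05). With ATRA its 3 values lay above the 3 of ES cells, a difference that was not called (0.13 ± 0.063). Orc5, another origin recognition subunit, fell by 0.22 ± 0.061 with ATRA against DMSO, and the call ended whichever of the 6 arrays was left out (log2 change -0.23 to -0.19, adjusted p 0.0644 to 0.125).

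Of 47 other mitosis genes, 7 rose and 9 fell in day 4 EBs against ES cells (median -0.045), 3 rose and 2 fell with ATRA against DMSO (-0.035), and 7 rose and 18 fell with ATRA against ES cells (-0.094). That is 34%, 10.6% and 53.2% called, beside 34.7%, 13.3% and 36.6% of all genes. Ska2, of the complex that ties kinetochores to microtubules, rose by 0.53 ± 0.052 in day 4 EBs and Cenpk, of the inner kinetochore, by 0.56 ± 0.085. Nek2, a centrosome kinase, fell by 0.32 ± 0.046 in day 4 EBs and rose by 0.27 ± 0.046 with ATRA against DMSO. Kif23, a kinesin of the central spindle, went the other way, with 0.33 ± 0.045 in the first and -0.27 ± 0.045 in the second of these comparisons. Ttk, the checkpoint kinase Mps1, rose by 0.37 ± 0.053 with ATRA against DMSO. With DMSO against day 4 EBs, Aspm, a spindle pole gene, was the only gene called in the 6 further lists (-0.30 ± 0.050), and it lost its call without DMSO 1, EB 1, EB 2, DMSO 3 or EB 3 (log2 change -0.32 to -0.27, adjusted p 0.0659 to 0.138).

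Of 19 E2F, retinoblastoma and MuvB genes, 2 higher and 3 lower were called in day 4 EBs against ES cells, 0 higher and 3 lower with ATRA against DMSO and 2 higher and 5 lower with ATRA against ES cells (26.3%, 15.8% and 36.8%, beside 34.7%, 13.3% and 36.6% of all genes). Mybl2, which encodes B-Myb, fell by 0.27 ± 0.053 with ATRA against DMSO, and Foxm1, the G2 and M transcription factor gene, fell by 0.19 ± 0.044 with ATRA against ES cells. Of 16 genes of the anaphase-promoting complex and its partners, Ube2s, a ubiquitin-conjugating enzyme of that complex, was the only call with ATRA against DMSO (0.25 ± 0.049), beside 2 higher and 4 lower in day 4 EBs against ES cells (6.25% and 37.5% called, beside 13.3% and 34.7% of all genes). Of 8 checkpoint kinases and phosphatases, Atr alone was called in day 4 EBs (12.5%) and rose by 0.48 ± 0.063. Chek2 and Cdc25a (25% of the list) fell with ATRA against DMSO, by 0.27 ± 0.069 and 0.20 ± 0.054. Chek2 lost its call without ATRA 1, DMSO 1, ATRA 3 or DMSO 3 (log2 change -0.26 to -0.23, adjusted p 0.0685 to 0.0942). Cdc25a lost its call without ATRA 1, DMSO 1, ATRA 2, DMSO 2 or ATRA 3 (log2 change -0.21 to -0.18, adjusted p 0.0653 to 0.102).

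Of 6 CDK inhibitor genes, 2 higher and 2 lower (66.7%) were called in day 4 EBs against ES cells, where 34.7% of all genes were. Cdkn1b, which encodes p27, read 10.81, 10.72 and 10.75 in ES cells, 11.55, 11.44 and 11.48 in day 4 EBs, 11.62, 11.58 and 11.58 with DMSO and 11.55, 11.53 and 11.55 with ATRA, a rise of 0.73 ± 0.044 in day 4 EBs with no overlap. Cdkn1c, the p57 gene, rose by 0.58 ± 0.088 in day 4 EBs and by 0.42 ± 0.088 with ATRA against DMSO. Cdkn2c (p18) fell by 1.07 ± 0.12 and Cdkn2b (p15) by 0.59 ± 0.054 in day 4 EBs. Each of these 4 changes in day 4 EBs was larger than any change of the 36 replication and mitosis genes in that comparison. Whether the fibroblast markers, which were lower in the same arrays, go with the falls was not tested.

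**Figure D5:**
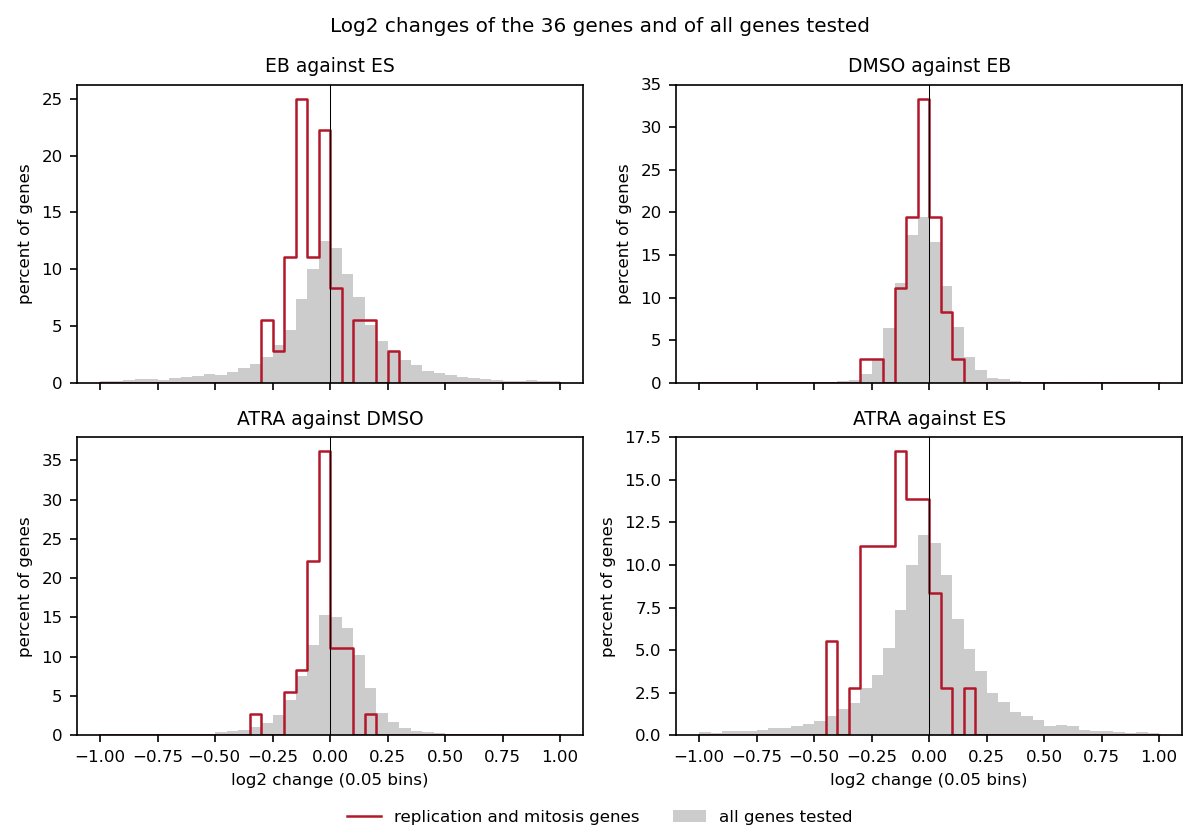
Share of genes (percent, vertical axis) by log2 change in bins of 0.05 for all 19938 genes (grey bars) and for the 36 replication and mitosis genes (red line) in the 4 comparisons; the axis is limited to changes from -1 to 1. The 36 genes stay between -0.42 and 0.28, and their medians are -0.084, -0.018, -0.035 and -0.13 for EBs against ES cells, DMSO against EBs, ATRA against DMSO and ATRA against ES cells.

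Set beside the promoter windows, calls were made for genes with and without the words. Of the 8 replication genes with an E2F word, 3 were called lower with ATRA against ES cells (Orc1, Mcm3 and Mcm6; median over the 8 -0.092), and of the 6 without, 2 were (Rrm2 and Tyms; -0.13). In the same comparison 19.1% of all genes were called lower and 17.5% higher. Of the 12 measured mitosis genes with a CHR word, 6 were called lower and 1 higher there, with a median of -0.13. Cenpe and Birc5, the other 2 measured mitosis genes with a window, were both called lower. These sets are small, and no test was made of the differences.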

How the data were processed

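Total RNA of 12 samples, 3 in each of 4 groups, was labelled and hybridised to Affymetrix arrays, per the labels' protocols. The values are the log2 intensities that the authors deposited. They were used as deposited in the main fit, with array medians of 7.76 to 7.86. How they were summarised and normalized is not given in the sources used here. Of 35556 probe sets, 21789 carry 1 gene symbol in the platform annotation, 1621 several and 12146 are not listed. Each of 19938 genes was read from its brightest such probe set, by the mean of all arrays, with no filter on low values. A linear model of the 4 groups was fitted to all genes with limma 3.58.1 in R 4.3.3 (lmFit and eBayes, 8 residual and 3.93 prior degrees of freedom), and p-values were adjusted by the Benjamini-Hochberg method over all genes. A call is an adjusted p under 0.05, intervals are at 95%, and p-values reflect only how far samples titled as biological replicates differ, which may be technical, as separate cultures are not stated. Replicate arrays correlated at 0.992 to 0.997 and shared at most 0.0562% of their values. The number of arrays limits the precision.

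All 36 measured replication and mitosis genes are reported, and Ccnb1 was not analysed here. From each other gene list up to 4 called genes with the smallest adjusted p could be named. The genes and lists were chosen with earlier results of these data known. Alternatives were quantile normalization, median centring, a filter on low values, other probe set rules, an intensity trend, array weights, other sets of samples, the replicate number as a block, and leaving out each array. The fit was tested on simulated data. Promoter sequences are from RefSeq (GRCm38.p6).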

Additional observations from a re-analysis of the deposited data

How the results depend on the processing

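No called change turned its sign under any of the 10 settings or 6 single-array removals per comparison. Over 225 results for single genes, 3346 of 3594 values stayed on their side of the threshold, 185 lost a call and 63 gained one. For EBs against ES cells, 15 of 36 replication and mitosis genes were called. The count was 19 with quantile normalization or array weights and 20 with an intensity trend or genes above the median mean value. It was 7 with median centring, 9 over all probe sets and 4 with only these 6 arrays. It was 8 without ES replicate 2 and EB replicate 2 together, and 7 to 13 with single arrays left out. Over all genes, 6925 calls became 7343 with quantile normalization, 9288 with array weights and 7396 with the trend. Above the median mean value 5669 of 9969 genes were called, and over all probe sets 8597 of 35556. Calls over all genes were 6475 with median centring, 5277 with only these 6 arrays and 6248 without the 2 arrays together. They were 6013 to 7102 with single arrays left out. The cause was not tested, except that the smaller fits hold fewer samples. For DMSO against EBs, 0 of 36 became 4 with an intensity trend or with genes above the median mean value. Over all genes, 149 calls became 253 with quantile normalization, 761 above the median mean value, 476 over all probe sets, 626 with the trend, 25 with only these 6 arrays, 27 without ES replicate 2 and EB replicate 2, and 0 to 128 with single arrays left out (0 without DMSO 1 or EB 1). The higher share of these calls moved from 71.8% to 57.7% with quantile normalization and 87% with median centring. For ATRA against DMSO, 1 of 36 became 2 with quantile normalization and 4 with the trend, the low-value filter or array weights. Over all genes, 2655 calls became 2852 with quantile normalization, 3163 with the trend and 2670 of 9969 with the low-value filter. Array weights raised the calls over all genes from 2655 to 4311, and for ATRA against ES cells from 7306 to 11052. Calls among the 36 genes in that comparison ran from 13 to 17 with single arrays left out, against 18. They numbered 22 with the trend or array weights and 12 with median centring. Over all genes, calls ran from 6203 to 7188 with single arrays left out, against 7306. They numbered 7682 with the trend and 6955 with median centring. Same-numbered arrays of EBs and ES cells deviated together for replicates 1 and 2 (correlations of 0.303 and 0.506) but not for replicate 3 (-0.065). In the other comparisons the correlations ran from -0.126 to 0.088. Whether the numbers pair the samples is not settled by this, and the main fit used no pairing. With the replicate number as a block, 14, 0, 1 and 18 of the 36 genes were called in the 4 comparisons in the order above. Over all genes the counts were 6848, 62, 2553 and 7286. Plk1 and Cenpa lost and Rrm1 gained a call for EBs against ES cells. Calls over all genes for DMSO against EBs went from 149 to 62. With 3 arrays per group, small changes lie close to the threshold, and log2 intensities near the top of the range can understate differences.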
